A study of Mus musculus with 21 samples.

Results

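This comparison sets spiral ganglion neurons (SGNs) of the mouse cochlea at the embryonic stage E15.5, when their axons are growing, against the same cells in the postnatal cochlea at P8. At P8 they are wired to hair cells and brainstem but hearing has not begun. The members of the comparison are all genes with a CPM (counts scaled to library size) over 1 in all 3 libraries of either age, which held for 14170 of the 52550 genes in the count table. The study made 21 bulk RNA-Seq libraries in 7 groups of 3, of which 5 are SGN ages from E15.5 to P30 and the others are P12 hair cells and P8 glia. Both ages compared here came from C57BL/6 mice that carried *ShhCre/+* and *Rosa26-CAG-loxp-stop-loxp-tdTomato* (Ai9)*/+*, so that cells with a history of *Shh* expression, which in the cochlea are the SGNs, made tdTomato, and these red cells were picked by hand. The E15.5 libraries were made from 69, 90 and 92 cells and the P8 libraries from 140, 102 and 108 cells. Each SGN library had to pass a qPCR check for a neuronal gene and against the glial gene *Sox10* and the hair cell gene *Myo6* before sequencing, so the genes checked are no independent measure of purity. Nothing states that the 3 replicates of an age came from separate animals, and p-values therefore measure only the spread between these libraries, which may be technical.

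SGNs are bipolar neurons that carry the output of hair cells to the cochlear nucleus. A growing axon is led by a growth cone, whose actin and tubulin are remodelled in response to netrins, semaphorins, slits and ephrins. A wired neuron needs presynaptic release machinery at its central terminals, glutamate receptors at its hair cell contacts and dense sodium and potassium channels at nodes of Ranvier and at the spike initiation site. Before hearing onset SGNs fire bursts driven by hair cells, and Schwann cells wrap their axons in myelin.

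The 6 libraries held between 12887010 and 35591662 counts, and the 3 P8 libraries were each deeper than the 3 E15.5 libraries. Pearson correlations of log2 CPM over genes, which are not independent replicates, lay between 0.813 and 0.825 within E15.5, between 0.9 and 0.938 within P8 and between 0.705 and 0.776 across the ages. Mitochondrially encoded genes took 9.57 to 13.5% of the counts at E15.5 and 20.5 to 22.6% at P8. The label SGN fitted the markers. The 10 SGN markers summed to 742 to 1477 TPM (counts scaled by gene length and then to a fixed total) at E15.5 and to 2821 to 6154 TPM at P8. The same sum was 35.7 to 335 TPM in the glia libraries and 377 to 416 TPM in the hair cell libraries. Of the 10, 5 were called higher at P8 and 1, *Gata3*, lower. Markers of other cells are given here once because they moved between the ages. The 12 glial and Schwann cell markers summed to 95.7 to 376 TPM at E15.5 and to 971 to 1737 TPM at P8, against 8065 to 11176 TPM in the glia libraries. At P8, 6 of the 12 were called higher, among them *Mbp*, *Pmp22*, *Egr2*, *Prx* and *S100b*, with *Egr2* not called without E15.5 replicate 1. *S100b* was not a glial marker in these data, since its mean was 20.8 TPM in the glia libraries against 169 TPM in P8 SGNs and 93.8 TPM in hair cells. The other 11 summed to 88.2 to 372 TPM at E15.5, 834 to 1554 TPM at P8 and 8057 to 11147 TPM in glia. The glial gene *Sox10* was not called (adjusted p = 0.0754). The 10 hair cell markers summed to 30.1 to 177 TPM at E15.5 and 235 to 448 TPM at P8, against 5608 to 6792 TPM in the hair cell libraries, with *Atoh1* at 0 in all E15.5 libraries. Of the 4 called higher, *Pou4f3*, *Gfi1* and *Slc26a5* were called in 0 of the 6 fits that left out a library, and *Tmc1* in 5 of 6, all but the fit without E15.5 replicate 1. Blood markers reached 183 TPM in E15.5 replicate 1, and connective tissue markers reached 155 TPM in P8 replicate 1. Macrophage and endothelial markers summed to at most 15.2 and 12 TPM in any of the 6 libraries. Supporting cell markers summed to 24.1 to 41.1 TPM at E15.5 and 13.7 to 110 TPM at P8, and those of inhibitory and catecholaminergic neurons to 0.629 to 2.31 TPM and 5.7 to 16.7 TPM, with *Slc32a1* and *Dbh* at 0 throughout. The part of these cells in the results below was not tested, and in bulk libraries fewer cells of a type and less RNA per cell cannot be told apart.

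**Figure D1:**
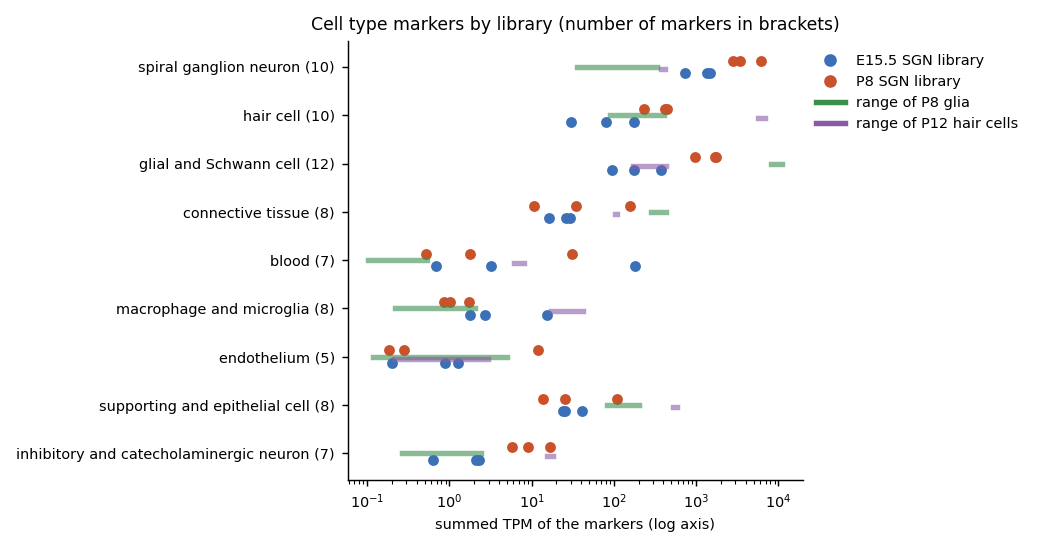
Summed TPM (log axis) of the fixed marker lists for SGNs and for other cell types in each of the 6 libraries, with 1 point a library, blue for E15.5 and orange for P8. Green bars give the range of the P8 glia libraries and purple bars that of the P12 hair cell libraries. The glial sums of the P8 libraries (971 to 1737 TPM) lie above those of the E15.5 libraries (95.7 to 376 TPM) and below those of the glia libraries (8065 to 11176 TPM).

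A gene was called when its fitted change between the ages was over 2-fold with a limma-voom adjusted p under 0.05, taken over the 15113 genes of a fit to all 15 SGN libraries. Changes are P8 minus E15.5 on the log2 scale, with the standard error (SE) of the fit. Of the members, 2135 were higher at P8 (15.1% of members) and 1701 were lower (12%), so the called share was 27.1%. Over all genes fitted, 25.7% were called, 14.4% higher and 11.3% lower. The median fitted change was 1.98 on the log2 scale for the genes that rose and -2.02 for those that fell. Both directions held protein-coding genes in the main, with 1980 among the genes that rose and 1244 among those that fell. The split depends on the scaling and on which age loses a library. Without E15.5 replicate 1, 1859 genes of the fit were higher and 1968 lower. The numbers were 2054 and 2219 without E15.5 replicate 2, and 1659 and 1742 without E15.5 replicate 3. In these fits 48.1 to 48.8% of the calls were higher, against 56.1% with all libraries. Without 1 P8 library the share was 57.8 to 59.7%. The genes fitted also changed, from 15113 to between 15537 and 15619 without an E15.5 library, and the cause of the shift was not tested. With library size alone in place of TMM factors, 1426 genes of the fit were higher and 2778 lower, against 2176 and 1706. The median change of all genes fitted was then -0.29 rather than 0.07 on the log2 scale. In the order of the ages, all 3 P8 libraries lay above all 3 E15.5 libraries for 2386 members (16.8%), and the reverse held for 1440 members (10.2%), against 16.5% and 9.61% of all genes fitted. Of the members, 1417 passed the CPM minimum only at E15.5 and 563 of these fell, 1505 passed only at P8 and 488 of these rose, and 11248 passed at both ages. Genes that passed at one age only were in part chosen by the filter for being high there, and their p-values are given as a description. They made up 30 of the 278 genes called in the lists below, with 16 passing at E15.5 only and 14 at P8 only. The calls were kept in all 6 fits that left out 1 of the 6 libraries for 1234 of the genes that rose and 899 of those that fell.

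**Figure D2:**
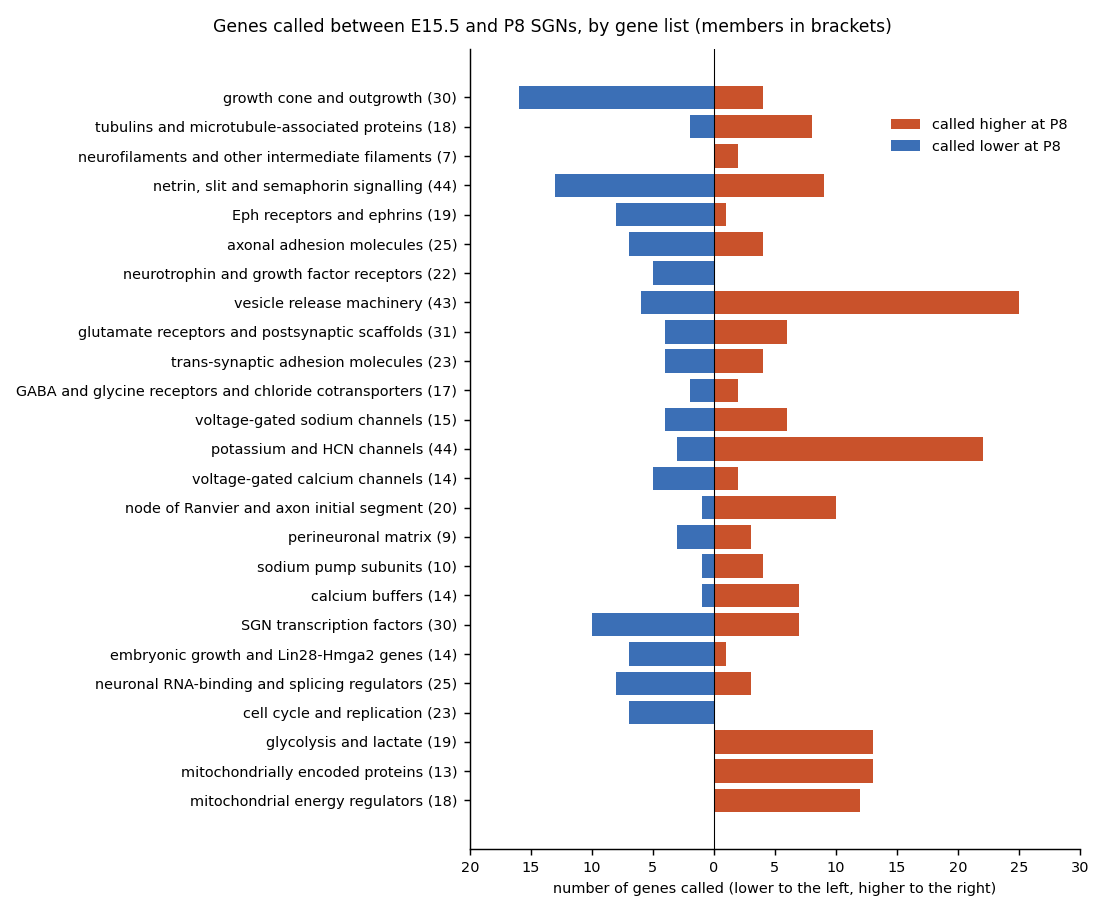
Number of genes called lower (blue, to the left) and higher (orange, to the right) at P8 in each of the 25 gene lists, with the number of members of each list in brackets. Bars for growth cone genes (16 lower, 4 higher) and Eph receptors and ephrins (8 lower, 1 higher) point mainly left, and those for vesicle release (25 higher, 6 lower), potassium and HCN channels (22 higher, 3 lower) and glycolysis (13 higher, 0 lower) point mainly right.

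The largest rises by the naming rule, which asked for more than 10 CPM in all 3 libraries of one age, no overlap between the ages and a call in each fit that left out a library, are given first. All 10 passed the CPM minimum at P8 only, so the filter itself chose them in part for being high there. The first of them, *Chrna6*, encodes a nicotinic acetylcholine receptor subunit. It (ENSMUSG00000031491.10, chromosome 8, 27403212 to 27413944 in GRCm38) had 0 counts in all 3 E15.5 libraries and stood at 5.51, 16.3 and 9.21 TPM at P8, which is at least 95.9-fold higher against a floor of 3 counts per library. Its neighbour *Chrnb3*, also among the 10 (chromosome 8, 27368711 to 27399730), which encodes a subunit that assembles with it, stood at 0, 0.152 and 0.0824 TPM at E15.5 and at 7.5, 18.3 and 6.97 TPM at P8 (log2 change 7.48, SE 1.67). The annotated gene bodies lie 3481 bases apart, and for both genes every P8 library was far above every E15.5 library. The other rises among the first 10 were *Ankrd34c* (log2 change 9.24), *Gm19410* (at least 57.7-fold higher), *Dusp27* (7.10), *Plekhd1* (6.67), the copine gene *Cpne9* (6.58), *Tmem196* (6.57), *Colq*, the collagen tail of acetylcholinesterase (6.51), and *A2ml1* (6.21). *Plekhd1* was not called with sample quality weights (adjusted p = 0.0595).

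Of the 10 largest falls by the same rule 9 passed the CPM minimum at E15.5 only, all but *Mex3a*, and were likewise chosen by the filter in part for being high there. *Igf2bp1* (chromosome 11, 95957163 to 96005940), which encodes an RNA-binding protein of fetal tissues that binds messages such as *Igf2* and *Actb*, stood at 8.65, 3.69 and 17.1 TPM at E15.5 and at 0.0766, 0 and 0 TPM at P8 (log2 change -9.92, SE 1.66). *Kcnh4*, a potassium channel gene of the ELK family, fell from 12.3, 7.42 and 17.3 TPM to 0, 0.112 and 0.139 TPM (log2 change -8.17, SE 1.14). *Scn11a*, the sodium channel Nav1.9 best known from pain-sensing neurons, fell from 15.6, 8.14 and 17.3 TPM to 0.458, 0 and 0.398 TPM (log2 change -7.07, SE 1.30). For each of these 3 genes the highest P8 library was below the lowest E15.5 library by a wide gap, and their P8 counts reached at most 18, 14 and 66, in that order, with 0 in at least 1 P8 library each. *Mex3a*, another RNA-binding protein, was the most abundant of the 10 and stood at 81.2, 30.1 and 86.2 TPM at E15.5 and at 2.47, 1.69 and 1.05 TPM at P8 (log2 change -5.22, SE 0.49, adjusted p = 1.4e-06). *Draxin*, a secreted guidance protein that repels commissural axons, had 10.4, 6.91 and 16.4 TPM at E15.5 and 0.76, 1.11 and 0.0151 TPM at P8 (log2 change -5.34, SE 1.15). It overlaps *Mad2l2* on the opposite strand, and since the strand setting of the counting is not stated, reads of the overlap cannot be assigned to either gene. *Gpc2*, a cell surface proteoglycan of growing axons (log2 change -6.08), *Fgd3* (-5.80), *Prr18* (-5.64), *Igsf9* (-5.28) and *Ptgir* (-5.20) completed the 10.

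Promoters of 4 genes that are described below are shown here because these genes moved by large amounts in opposite directions and their promoters hold a match to 1 of 3 searched motifs. The genes were chosen after their values were seen. Each sequence is the 250 bases before the RefSeq start in GRCm38.p6, 5′ to 3′ on the strand of the gene, with the motif match in capitals. *Syt2* (called higher; chr1:134646362-134646611, plus strand) and *Hcn2* (called higher; chr10:79716384-79716633, plus strand) hold the estrogen-related receptor motif TCAAGGTCA as its reverse complement TGACCTTGA, which begins at positions -167 and -168 (the base before the start is -1). *Vsnl1* (called higher; chr12:11436579-11436828, minus strand) and *Celf3* (called lower; the most upstream of its starts, chr3:94484077-94484326, plus strand) hold the E-box CAGATG, a motif bound by proneural factors, as its reverse complement CATCTG, which begins at positions -174 and -11.
Syt2: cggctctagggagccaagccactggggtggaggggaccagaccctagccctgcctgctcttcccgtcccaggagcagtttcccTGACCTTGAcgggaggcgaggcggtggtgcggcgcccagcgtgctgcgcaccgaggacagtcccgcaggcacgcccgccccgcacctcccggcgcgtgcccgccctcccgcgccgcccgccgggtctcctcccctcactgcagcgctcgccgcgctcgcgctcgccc
Hcn2: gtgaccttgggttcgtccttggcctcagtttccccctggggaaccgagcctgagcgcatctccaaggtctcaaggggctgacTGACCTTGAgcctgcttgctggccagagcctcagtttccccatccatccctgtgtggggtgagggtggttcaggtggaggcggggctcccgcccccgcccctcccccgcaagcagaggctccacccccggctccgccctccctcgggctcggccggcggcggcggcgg
Vsnl1: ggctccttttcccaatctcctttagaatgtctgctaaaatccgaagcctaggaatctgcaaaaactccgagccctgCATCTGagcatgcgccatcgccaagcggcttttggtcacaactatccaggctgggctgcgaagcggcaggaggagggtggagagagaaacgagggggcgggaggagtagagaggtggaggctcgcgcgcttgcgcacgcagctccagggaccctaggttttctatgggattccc
Celf3: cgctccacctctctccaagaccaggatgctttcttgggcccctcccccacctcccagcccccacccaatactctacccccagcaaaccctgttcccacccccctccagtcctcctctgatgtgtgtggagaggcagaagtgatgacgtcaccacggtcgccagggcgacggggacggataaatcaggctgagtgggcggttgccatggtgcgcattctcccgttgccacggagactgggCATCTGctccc
The motifs were searched on both strands and do not overlap one another in these promoters. Over the 27025 RefSeq genes with a promoter, TCAAGGTCA was found in 0.422%, CAGATG in 16.3% and the palindromic NRF1 motif in 0.877%. Promoters were matched for 9938 members. The first motif was in the promoters of 9 of 1579 genes called higher (0.57%), of 6 of 1050 genes called lower (0.571%) and of 18 of 7309 genes not called (0.246%), so its share was about equal in both directions. The E-box was in 11.7% of the promoters of genes called higher, 13.4% of those called lower and 11.4% of those not called, and the NRF1 motif in 1.14%, 1.62% and 2.05%. A match describes letters only and shows no binding.

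Of 30 growth cone and outgrowth genes, all of them members, 16 were called lower (53.3%, against 12% of members) and 4 higher (13.3%, against 15.1%), with a median change of -1.13 on the log2 scale against 0.07 over all genes fitted. *Sox11*, a transcription factor of newborn neurons that drives outgrowth, stood at 263, 76.7 and 256 TPM at E15.5 and at 8.57, 19.2 and 5.02 TPM at P8 (log2 change -4.24, SE 0.31, adjusted p = 1.48e-07). *Dcx*, which encodes the microtubule-binding protein doublecortin of migrating and extending neurons, stood at 178, 77.9 and 225 TPM and then at 9.27, 14.6 and 5.84 TPM (log2 change -4.04, SE 0.19, adjusted p = 7.66e-10). Neither gene overlapped between the ages, although E15.5 replicate 2 was the lowest of its age for both. *Stmn1*, the microtubule-destabilising stathmin, fell from 512, 346 and 691 TPM to 63.9, 71.2 and 43.3 TPM (log2 change -3.17, SE 0.28, adjusted p = 6.74e-07). *Marcks*, an actin-regulating substrate of protein kinase C, fell from 98.5, 70.7 and 102 TPM to 11.6, 9.98 and 4.26 TPM (log2 change -3.54, SE 0.39, adjusted p = 5.62e-06). Its mean in the glia libraries was 145 TPM, and the part of glial RNA in its values was not tested. *Gap43*, the classical growth cone phosphoprotein, was still abundant at P8, with 185, 266 and 275 TPM at E15.5 and 70.2, 74.3 and 47.8 TPM at P8 (log2 change -2.01, SE 0.37, adjusted p = 0.000733). Its mean at P1, between these ages, was 550 TPM, and it was 7.31 TPM at P14, so the level at E15.5 was not the peak of the series. *Gap43* was named after its values were seen. Not every stathmin fell, and *Stmn3* rose from 194, 147 and 228 TPM to 480, 703 and 420 TPM (log2 change 1.40, SE 0.25, adjusted p = 0.000466). *Nrn1*, a membrane-anchored protein induced by activity, rose from 26.9, 12 and 17.1 TPM to 62.8, 95.1 and 53.5 TPM (log2 change 1.91, SE 0.26, adjusted p = 5.88e-05). The count of growth cone genes called higher was 2 without E15.5 replicate 3 and 2 with library size alone, while the count called lower lay between 15 and 19 in every alternative fit at the 2-fold threshold and was 5 at 4-fold.

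**Figure D3:**
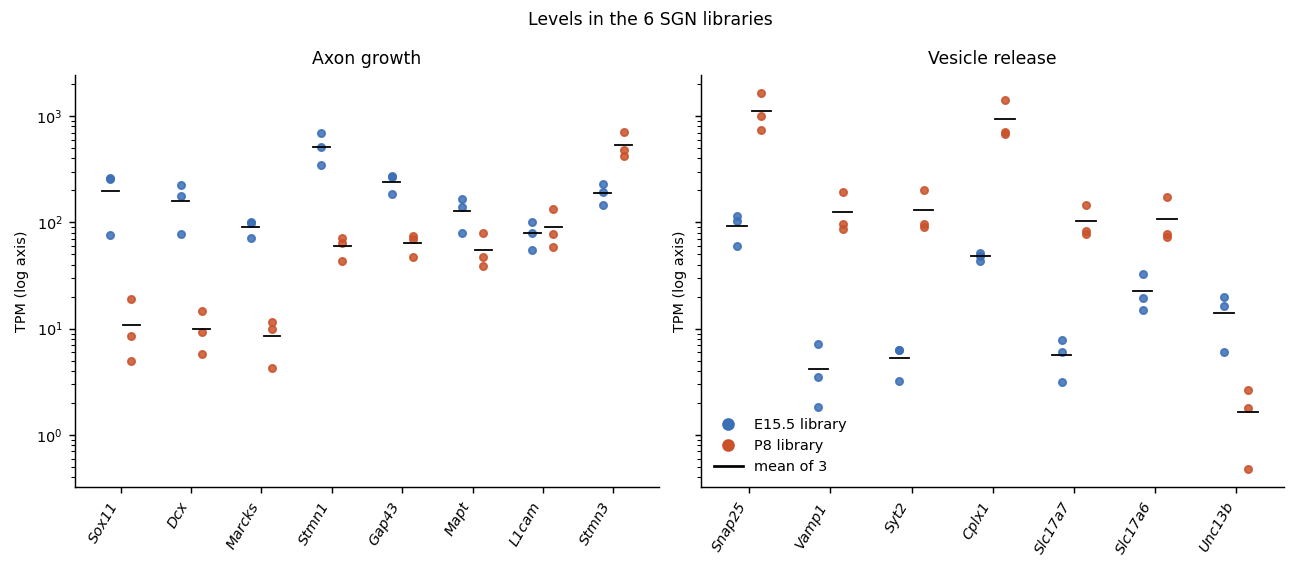
TPM on a log axis in each library for selected growth genes and release genes, with 1 point a library and a bar at the mean of 3, E15.5 in blue and P8 in orange. Growth genes such as *Dcx* (77.9 to 225 TPM at E15.5, 5.84 to 14.6 TPM at P8) lie lower at P8, and release genes such as *Snap25* (59.8 to 116 TPM, then 738 to 1642 TPM) lie higher, without overlap.

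Among 18 tubulins and microtubule-associated proteins, 8 were called higher (44.4%, against 15.1% of members) and 2 lower (11.1%), with a median of 0.96. *Map1a*, a microtubule-binding protein of mature axons and dendrites, stood at 28.2, 30.4 and 28.5 TPM at E15.5 and at 536, 839 and 432 TPM at P8 (log2 change 4.24, SE 0.24, adjusted p = 1.11e-08). *Tuba8* (log2 change 4.09), *Tuba4a* (2.97) and *Tubb4b* (2.27) rose without overlap. *Tubb2b*, a beta tubulin of migrating and growing neurons, fell from 288, 189 and 303 TPM to 82.4, 154 and 69.9 TPM (log2 change -1.47, SE 0.24, adjusted p = 0.000249). *Mapt*, which encodes tau, was the other gene called lower (log2 change -1.30, SE 0.16, adjusted p = 1.49e-05). *Tuba1a*, the most abundant of the list, had 2689, 2140 and 2890 TPM at E15.5 and 1664, 2603 and 1154 TPM at P8. It was not called (log2 change -0.65). The ages overlapped in TPM, and overlap on counts scaled to library size is not given here. The count called higher was 5 without E15.5 replicate 1, and with library size alone the list had 4 genes higher and 4 lower, so that the balance toward higher genes depends on the scaling. With no filter on low counts *Map1a* was not called (adjusted p = 0.0901). Tubulin genes are near-identical in sequence and the counting of shared reads is not stated, so the values of single tubulins are uncertain.

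Neurofilaments, the proteins that set axon calibre, accounted for the 2 genes called higher among 7 intermediate filament genes (28.6%, against 15.1% of members), and 0 were called lower (against 12%). *Nefh*, the heavy chain, stood at 12.1, 19.4 and 27.2 TPM at E15.5 and at 773, 762 and 493 TPM at P8 (log2 change 5.03, SE 0.42, adjusted p = 4.19e-07). *Nefl*, the light chain, stood at 629, 273 and 630 TPM and then at 1618, 3275 and 1423 TPM (log2 change 1.98, SE 0.15, adjusted p = 1.78e-07). The heavy chain thus moved from far below the light chain toward it, with no overlap between the ages in either gene. No gene of the list was called lower by limma-voom or edgeR and 0 had an unadjusted p under 0.05 in that direction, but 1 was called lower by DESeq2 and 1 without P8 replicate 1.

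Guidance genes were called in both directions. Of 48 netrin, slit and semaphorin pathway genes 44 were members, and 13 of these were lower (29.5%, against 12% of members) and 9 higher (20.5%, against 15.1%), with a median of -0.07. The falls included receptors: *Plxna3*, a plexin that transduces class 3 semaphorins, stood at 39.6, 17 and 39.8 TPM at E15.5 and at 3.09, 4.31 and 1.77 TPM at P8 (log2 change -3.43, SE 0.27, adjusted p = 2.28e-07). *Unc5b*, a repulsive netrin receptor, stood at 57.3, 25.9 and 89.9 TPM and then at 8.01, 11.5 and 4.4 TPM (log2 change -2.84, SE 0.27, adjusted p = 1.79e-06). Both were separated between the ages, as were *Plxnb1*, a receptor for semaphorin 4D (log2 change -2.84), and the membrane semaphorin gene *Sema4a* (-4.42). *Unc5a*, a relative of *Unc5b* in the same receptor family, moved the other way, from 0.496, 1.14 and 0.126 TPM to 7.52, 16.1 and 6.02 TPM (log2 change 4.32, SE 0.88, adjusted p = 0.00151). *Sema7a*, a membrane-anchored semaphorin that acts through integrins and plexin C1, rose from 32.8, 9.92 and 29.4 TPM to 111, 294 and 131 TPM (log2 change 2.89, SE 0.36, adjusted p = 2.01e-05) and was the most abundant riser named in the list. The secreted ligands *Sema3b* (log2 change 3.37) and *Slit3* (3.97) also rose, to 10.3 to 24.6 TPM and 6.83 to 13.3 TPM. They were at means of 100 and 20.6 TPM in the glia libraries, whose markers rose in the P8 SGN libraries as well, and the part of glial RNA was not tested. *Neo1*, the neogenin receptor and the most abundant gene of the list, fell by 1.23 on the log2 scale (SE 0.13, adjusted p = 3.46e-06) although P8 replicate 2 with 100 TPM lay above E15.5 replicate 2 with 82.3 TPM.

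Eph receptors and ephrins, which act at cell contacts as repellents and sort axons by position, mostly fell or were not called. Of 22 genes 19 were members, 8 were called lower (42.1%, against 12% of members) and 1 higher, with a median of -0.75. *Efnb3* stood at 4.91, 6.25 and 6.21 TPM at E15.5 and at 0.388, 0.559 and 0.235 TPM at P8 (log2 change -4.03, SE 0.70, adjusted p = 0.000426). *Efna3* had 16.6, 5.14 and 17.1 TPM and then 1.27, 1.64 and 0.404 TPM (log2 change -3.57, SE 0.62, adjusted p = 0.000437). The ligand gene *Efnb1* (log2 change -2.21) and the receptor gene *Ephb2* (-1.94) fell as well, all without overlap. *Efnb2*, the most abundant of the list, had 90.7, 29.5 and 93.2 TPM at E15.5 and 35.8, 74.5 and 25.3 TPM at P8, and did not pass the 2-fold threshold (log2 change -0.68, SE 0.19, adjusted p = 0.0128). The single gene called higher is fragile, since the count was 0 without E15.5 replicate 2, E15.5 replicate 3 or P8 replicate 2, 0 with edgeR and 2 without E15.5 replicate 1.

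Among 25 measured axonal adhesion genes 7 were lower (28%, against 12% of members) and 4 higher (16%, against 15.1%), with a median of -0.19. *Chl1*, a close homolog of L1, fell from 10, 4.29 and 7.46 TPM to 0.436, 1.72 and 0.778 TPM (log2 change -3.11, SE 0.41, adjusted p = 3.93e-05). *Alcam*, an immunoglobulin adhesion protein of fasciculating axons, fell from 179, 46 and 146 TPM to 19.9, 38.7 and 13 TPM (log2 change -2.34, SE 0.42, adjusted p = 0.000511). *Nectin3* fell by 2.08 on the log2 scale, again with no overlap. *L1cam* itself stayed at comparable values, with 79.4, 54.9 and 102 TPM at E15.5 and 78, 134 and 58.8 TPM at P8 (log2 change 0.08, SE 0.21, adjusted p = 0.79). *Cntn1*, contactin 1, which with *Cntnap1* forms the axonal side of the paranodal junction with myelin, rose from 33, 16.4 and 25.2 TPM to 65.2, 131 and 53 TPM (log2 change 1.63, SE 0.17, adjusted p = 3.46e-06). *Cadm2* (log2 change 1.57) and *Cadm3* (1.15) also rose, and with library size alone *Cadm3* was under 2-fold (0.79) and the list had 2 genes higher.

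Trophic receptors that were called had fallen. Of 22 measured neurotrophin and growth factor receptor genes 5 were lower (22.7%, against 12% of members) and 0 higher by limma-voom, edgeR and DESeq2, with 2 higher at an unadjusted p under 0.05 and 1 called higher in a fit of the 6 libraries alone and with thinned counts. *Gfra1*, the GDNF co-receptor, stood at 42.5, 13.2 and 56.1 TPM at E15.5 and at 10.1, 8.55 and 0.898 TPM at P8 (log2 change -2.84, SE 0.54, adjusted p = 0.000943). *Cxcr4*, the receptor for the chemokine CXCL12, fell from 8.58, 15.9 and 37 TPM to 5.01, 2.87 and 0.914 TPM (log2 change -2.96, SE 0.69, adjusted p = 0.00408). *Igf1r* fell by 1.81 and *Nrg3* by 1.17 on the log2 scale, the latter with overlapping libraries and no call without E15.5 replicate 1. *Gfra2* (log2 change -3.06, adjusted p = 0.0252) was called in only 2 of the 6 fits that left out a library and neither by edgeR nor by DESeq2. *Ngfr*, the p75 receptor and the most abundant of the list, had 98.2, 104 and 133 TPM at E15.5 and 108, 203 and 91.8 TPM at P8, without a called change (log2 change 0.11, SE 0.24, adjusted p = 0.766).

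Release machinery was the list with the most genes called. Of 44 vesicle release genes 43 were members, of which 25 were higher (58.1%, against 15.1% of members) and 6 lower (14%, against 12%), and the median was 1.55 on the log2 scale. *Snap25*, a SNARE of the plasma membrane, stood at 104, 59.8 and 116 TPM at E15.5 and at 1012, 1642 and 738 TPM at P8 (log2 change 3.51, SE 0.16, adjusted p = 7.66e-10). *Cplx1*, complexin 1, which clamps and triggers the assembled SNAREs, stood at 48.4, 51.7 and 43.5 TPM and then at 710, 1435 and 676 TPM (log2 change 4.13, SE 0.28, adjusted p = 5.92e-08). No E15.5 library came near a P8 library for either gene, and P8 replicate 2 was the highest library in each. *Syt2*, the fast calcium sensor whose promoter is printed above, rose from 3.25, 6.36 and 6.35 TPM to 97.6, 203 and 89.8 TPM (log2 change 4.44, SE 0.37, adjusted p = 4.25e-07). *Vamp1*, a vesicle SNARE of fast synapses, rose from 1.84, 3.52 and 7.13 TPM to 87, 195 and 96.3 TPM (log2 change 4.87, SE 0.42, adjusted p = 6.85e-07). The vesicular glutamate transporters, which load transmitter, both rose. *Slc17a7* (VGLUT1) went from 6, 7.91 and 3.18 TPM to 83.9, 146 and 78.5 TPM (log2 change 4.13, SE 0.47, adjusted p = 8.87e-06). *Slc17a6* (VGLUT2) went from 19.6, 15.1 and 32.8 TPM to 77.1, 173 and 73.5 TPM (log2 change 2.13, SE 0.28, adjusted p = 3.57e-05). Against this direction *Unc13b*, a priming factor, fell from 16.4, 6.1 and 19.8 TPM to 1.81, 2.65 and 0.483 TPM (log2 change -3.25, SE 0.44, adjusted p = 4.98e-05). The count called lower was 2 without E15.5 replicate 2, and *Snap25* was not called with no filter on low counts (adjusted p = 0.785).

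Glutamate receptors are the means by which SGNs receive hair cell input. Of 41 glutamate receptor and postsynaptic scaffold genes 31 were members, with 6 higher (19.4%, against 15.1% of members), 4 lower (12.9%, against 12%) and a median of 0.16, shares near those of all members. *Grin1*, the obligatory NMDA receptor subunit, stood at 6.97, 3.85 and 7.1 TPM at E15.5 and at 23.8, 41 and 19.8 TPM at P8 (log2 change 2.16, SE 0.19, adjusted p = 9.92e-07). *Grik3*, a kainate receptor subunit, had 0.138, 0.128 and 0.195 TPM and then 11.5, 20.2 and 3.64 TPM (log2 change 5.88, SE 1.33, adjusted p = 0.00332), and was not called with sample quality weights (adjusted p = 0.0744). The presynaptic autoreceptor gene *Grm7* (log2 change 3.20) and the scaffold gene *Dlg2* (1.24, but 0.88 with library size alone) rose too. *Cacng4*, an auxiliary subunit of AMPA receptors, fell from 64.5, 28.5 and 50.2 TPM to 18.2, 7.21 and 3.34 TPM (log2 change -2.57, SE 0.52, adjusted p = 0.00151), but not by edgeR (adjusted p = 0.0881) or DESeq2 (adjusted p = 0.127). *Shank1*, the most abundant gene of the list, had 78.5, 25.5 and 84.4 TPM at E15.5 and 68.7, 86.1 and 39.9 TPM at P8 and overlapped. With library size alone the list held 3 genes higher and 6 lower.

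Of 23 measured trans-synaptic adhesion genes 4 were higher and 4 lower (17.4% each, against 15.1% and 12% of members), with a median of 0.07, shares near those of all members. *Slitrk4* (log2 change 3.35, SE 0.61, adjusted p = 0.000644), *Lrrtm1* (2.44, SE 0.63, adjusted p = 0.00736) and *Lrrc4c* (1.92, SE 0.49, adjusted p = 0.00757), 3 leucine-rich repeat organisers, rose. *Lrrtm2*, a paralog of *Lrrtm1*, fell from 23.1, 7.69 and 18.9 TPM to 5.81, 6.88 and 2.63 TPM (log2 change -1.68, SE 0.34, adjusted p = 0.0014), and the secreted cerebellin gene *Cbln1* fell by 2.16 on the log2 scale. Both *Lrrtm* genes lie within catenin genes on the opposite strand, whose reads may enter the counts. *Slitrk3*, the most abundant gene here, had 75.1, 36.9 and 89.4 TPM and then 66.5, 99.9 and 49.3 TPM. Of 17 measured GABA and glycine receptor and chloride cotransporter genes, 2 were higher and 2 lower (11.8% each, against 15.1% and 12% of members), shares at or below those of all members. *Glrb*, the glycine receptor beta subunit that also anchors receptors to gephyrin, rose from 1.02, 0.927 and 0.827 TPM to 23, 68.7 and 25.1 TPM (log2 change 5.12, SE 0.61, adjusted p = 1.49e-05). *Gabbr2*, a subunit of the metabotropic GABA receptor, rose from 18.4, 12.7 and 18.4 TPM to 80.3, 129 and 52.4 TPM (log2 change 2.26, SE 0.18, adjusted p = 2.98e-07). *Gabra3* fell by 2.72 on the log2 scale and was not called by edgeR (adjusted p = 0.0612). *Gabrb1*, the other fall, was called in 1 of the 6 fits that left out a library. The count called lower was 1 without E15.5 replicate 2 or without any of the P8 libraries.

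Sodium channel genes were called in both directions. Of 18 genes 15 were members, 6 were higher (40%, against 15.1% of members) and 4 lower (26.7%, against 12%), with a median of 0.09, and the counts were 6 and 4 in all 6 fits that left out a library. *Scn1a* (Nav1.1) stood at 1.37, 2.42 and 1.94 TPM at E15.5 and at 47.9, 131 and 47.8 TPM at P8 (log2 change 5.04, SE 0.43, adjusted p = 6.57e-07). *Scn3a* (Nav1.3), the embryonic alpha subunit of many neurons, stood at 31.5, 11.7 and 35.5 TPM and then at 4.12, 8.81 and 4.29 TPM (log2 change -2.20, SE 0.28, adjusted p = 2.26e-05). Beta subunits were called in both directions as well. *Scn4b*, which supports resurgent current in fast-spiking neurons, rose from 0.706, 0.866 and 2.28 TPM to 33.2, 79.5 and 34.7 TPM (log2 change 5.19, SE 0.53, adjusted p = 3.46e-06). *Scn3b* fell from 50.3, 25.1 and 39.8 TPM to 14.7, 21.8 and 7.13 TPM (log2 change -1.52, SE 0.42, adjusted p = 0.0106). Neither edgeR (adjusted p = 0.138) nor DESeq2 (adjusted p = 0.126) made this call. *Fgf12*, an intracellular channel-binding factor, rose from 4.02, 7.43 and 11.8 TPM to 152, 250 and 107 TPM (log2 change 4.35, SE 0.45, adjusted p = 3.64e-06). *Scn9a* (Nav1.7) fell by 1.63 on the log2 scale in addition to *Scn11a* above. The sodium channel genes *Scn1a*, *Scn3a* and *Scn9a* are similar in sequence, and how shared reads were counted is not stated.

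More potassium channel genes were called higher than lower. Of 50 potassium and HCN channel genes 44 were members, of which 22 were higher (50%, against 15.1% of members) and 3 lower (6.82%, against 12%), with a median of 1.64. *Kcnk1*, a leak channel gene and the most abundant of the list, stood at 10.8, 3.07 and 18.1 TPM at E15.5 and at 111, 258 and 93.3 TPM at P8 (log2 change 3.99, SE 0.46, adjusted p = 9.79e-06). *Kcnk9*, the acid-sensitive leak channel TASK-3, stood at 11.6, 4.59 and 3.33 TPM and then at 58, 175 and 51.6 TPM (log2 change 3.83, SE 0.54, adjusted p = 7.35e-05). The auxiliary subunits *Kcnip1* (log2 change 5.14) and *Kcnip3* (4.54), which bind A-type channels, rose as well, all without overlap. The 3 genes called lower were *Kcnt2* (log2 change -6.90), *Kcnh1* (-4.06) and *Kcna6* (-1.08). *Kcnt2* and *Kcnh1* stayed at or below 1.41 and 2.51 TPM in every library and passed the filter at E15.5 only, *Kcnh1* was called in 1 of the 6 fits that left out a library, and *Kcna6* overlapped between the ages. *Kcnh4*, described above, is not in this list. The next 2 genes were named after their values were seen. *Hcn2*, whose promoter is printed above, rose from 0.68, 0.593 and 2.6 TPM to 9.82, 23.8 and 8.78 TPM (log2 change 3.51, SE 0.61, adjusted p = 0.000428). The HCN channels carry a current that opens on hyperpolarisation. *Kcna1*, a low-threshold Kv1 channel that keeps auditory neurons from firing repetitively, rose from 10.6, 11.1 and 25.7 TPM to 75.8, 180 and 72.2 TPM (log2 change 2.67, SE 0.26, adjusted p = 2.17e-06). Its mean in the glia libraries was 381 TPM, and the part of glial RNA in this rise was not tested.

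Among calcium channel genes more were called lower than higher, with 5 lower (35.7%, against 12% of members) and 2 higher (14.3%, against 15.1%) of 14 measured and a median of -0.55. *Cacna1e*, the R-type alpha subunit, stood at 106, 35.5 and 150 TPM at E15.5 and at 5.38, 14.6 and 5.03 TPM at P8 (log2 change -3.56, SE 0.28, adjusted p = 2.43e-07). *Cacna1h*, a T-type subunit, stood at 36.2, 16.3 and 36.2 TPM and then at 4.17, 5.92 and 2.38 TPM (log2 change -2.88, SE 0.44, adjusted p = 0.000148). The N-type gene *Cacna1b* fell by 1.60 on the log2 scale. These 3 alpha subunits did not overlap between the ages. *Cacnb2*, an auxiliary beta subunit, rose from 3.5, 2.6 and 4.35 TPM to 11.7, 22.8 and 13.6 TPM (log2 change 2.08, SE 0.33, adjusted p = 0.000182). *Cacnb3*, the most abundant of the list, overlapped (log2 change -0.70, SE 0.26, adjusted p = 0.047). The count called higher was 1 without E15.5 replicate 2, P8 replicate 2 or P8 replicate 3.

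**Figure D4:**
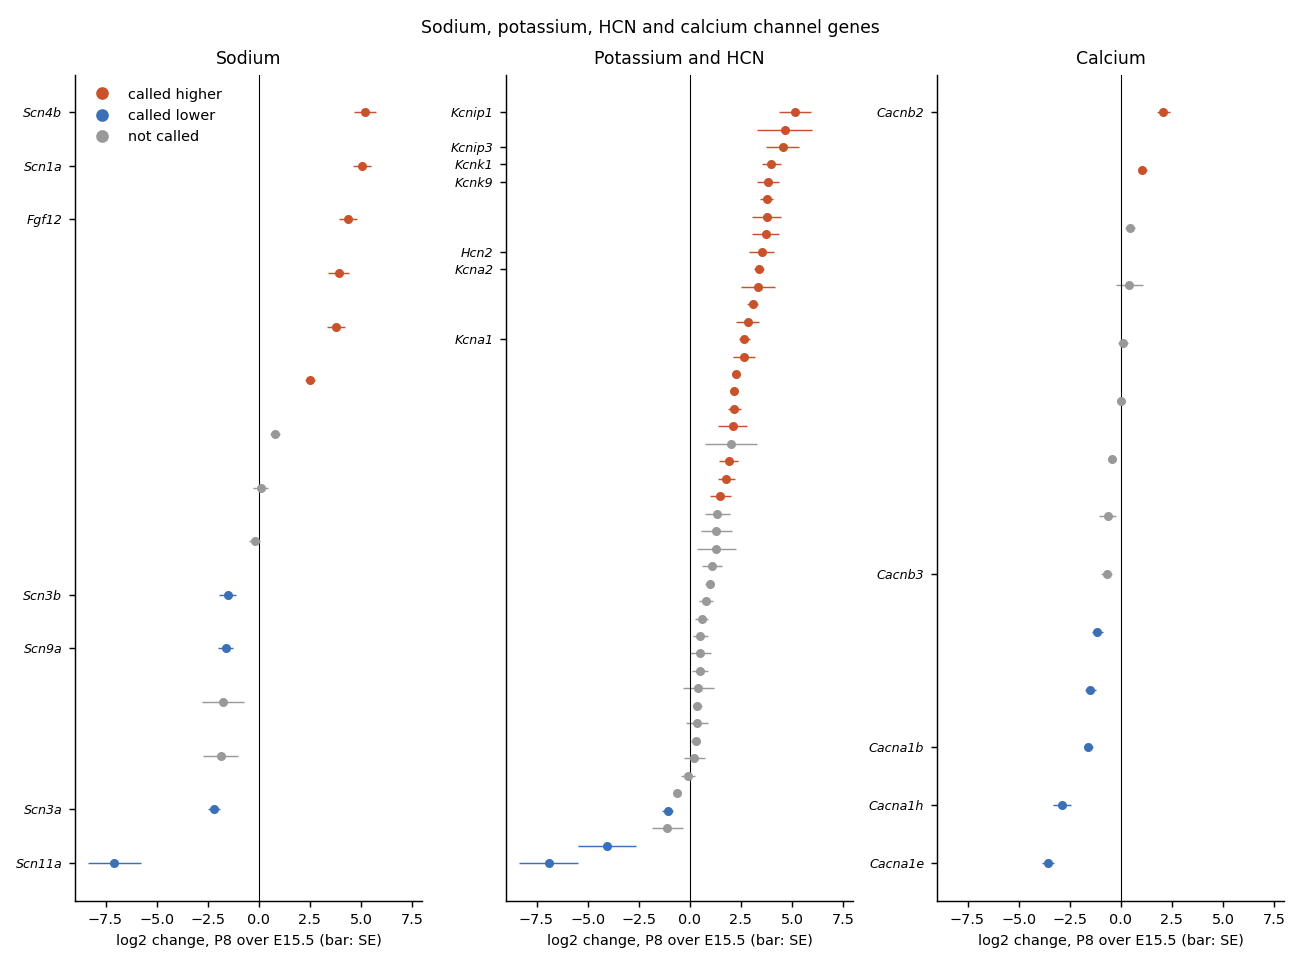
Fitted log2 change from E15.5 to P8 with its standard error for members of the sodium, potassium and HCN, and calcium channel lists, in orange for genes called higher, blue for genes called lower and grey for the others, and names for the genes described in the text. Potassium and HCN channels lie mostly to the right of 0 (22 higher, 3 lower), the calcium channels mostly to the left (5 lower, 2 higher) and the sodium channels on both sides (6 higher, 4 lower).

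Components of nodes and initial segments were higher in 10 of 20 genes (50%, against 15.1% of members) and lower in 1, with a median of 1.01. The list shares genes with the channel and adhesion lists above, so its counts are not separate from theirs. Shared genes include *Scn1a*, *Scn8a*, *Kcna1*, *Kcna2* and *Cntn1*, all called higher, and *Nrcam*, called lower. *Cntnap1*, the axonal paranodal protein Caspr, stood at 2.68, 5.62 and 3.05 TPM at E15.5 and at 39.3, 67.8 and 29.9 TPM at P8 (log2 change 3.46, SE 0.45, adjusted p = 3.1e-05). *Kcna2*, a juxtaparanodal channel, rose from 7.36, 9.16 and 7.1 TPM to 77.1, 154 and 53.4 TPM (log2 change 3.38, SE 0.25, adjusted p = 1.82e-07), with a mean of 62.3 TPM in the glia libraries. *Lgi3*, a secreted ligand of ADAM22 family receptors, rose from 1.14, 0.748 and 1.21 TPM to 32.8, 80.2 and 34.8 TPM (log2 change 5.39, SE 0.71, adjusted p = 3.7e-05) and was at 0.778 TPM in glia. Alpha spectrin, *Sptan1*, was the most abundant gene here and was only just past 2-fold (log2 change 1.05, SE 0.16, adjusted p = 0.000129), a call that remained in 2 of the 6 fits that left out a library. Of 9 measured genes of the perineuronal matrix, the coat around fast-firing neurons, 3 were higher and 3 lower (33.3% each, against 15.1% and 12% of members). *Hapln4*, a link protein, rose from 0.817, 1.58 and 3.06 TPM to 51.9, 110 and 47.7 TPM (log2 change 5.19, SE 0.45, adjusted p = 6.74e-07). *Vcan*, the proteoglycan versican of embryonic matrix, fell from 29.1, 8.91 and 60.3 TPM to 1.38, 1.23 and 0.688 TPM (log2 change -4.62, SE 0.57, adjusted p = 1.92e-05). The hyaluronan synthase gene *Has3* fell by 2.33 on the log2 scale. *Hapln1* had 0.123, 114 and 2.91 TPM at E15.5, so that E15.5 replicate 2 alone lay within the range of the P8 libraries at 51.7, 115 and 46.5 TPM, and its call was lost by edgeR and DESeq2. The count called higher in this list was 1 without E15.5 replicate 3 or without P8 replicate 2.

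Of 10 sodium and calcium pump genes 4 were called higher (40%, against 15.1% of members) and 1 lower (10%, against 12%), with a median of 1.23. *Atp1b1*, the beta subunit of the sodium pump, stood at 83.5, 57.6 and 93 TPM at E15.5 and at 1112, 1298 and 967 TPM at P8 (log2 change 3.79, SE 0.33, adjusted p = 6.15e-07). The plasma membrane calcium pumps *Atp2b2* (log2 change 2.48, SE 0.15, adjusted p = 2.04e-08) and *Atp2b3* (2.13, SE 0.27, adjusted p = 2.48e-05) were also called higher. *Atp1a4*, the 1 called lower, was at most 2.22 TPM in any library and not called without P8 replicate 1 or 2. Among 14 calcium buffers and sensors 7 were higher (50%, against 15.1% of members) and 1 lower (7.14%, against 12%), with a median of 1.34. *Vsnl1*, the neuronal calcium sensor visinin-like 1, had the largest change of the list and stood at 7.62, 14.9 and 25.8 TPM at E15.5 and at 1079, 1423 and 759 TPM at P8 (log2 change 6.04, SE 0.42, adjusted p = 1.01e-07). *Calb2*, calretinin, which among mature type I SGNs is graded between subtypes, rose from 4.69, 7.07 and 13.1 TPM to 248, 564 and 229 TPM (log2 change 5.25, SE 0.57, adjusted p = 5.94e-06). *Pvalb*, parvalbumin, was high at both ages and rose from 187, 145 and 267 TPM to 396, 910 and 487 TPM (log2 change 1.44, SE 0.27, adjusted p = 0.000839). *Calb1*, calbindin, overlapped between the ages (log2 change 2.02, SE 0.89, adjusted p = 0.0929). The calmodulin gene *Calm2* (log2 change 1.64) and the channel-binding sensor *Cabp1* (1.84) rose too. The count called lower was 2 without E15.5 replicate 1 and 3 with library size alone.

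Transcription factors of the SGN lineage were divided. Of 30 measured, 7 were higher (23.3%, against 15.1% of members) and 10 lower (33.3%, against 12%), with a median of -0.45. Over the alternative fits and those that left out a library, 3 to 8 were higher and 8 to 13 lower. Several rises, among them *Rorb* below, lost their call with sample quality weights. *Neurog1*, the proneural gene that specifies these neurons, was not a member, with 18, 0 and 0 counts at E15.5 and 0 counts in all P8 libraries. Its downstream factor *Neurod1* stood at 6.22, 7.13 and 30.6 TPM at E15.5 and at 1.6, 4.51 and 0.36 TPM at P8 (log2 change -3.08, SE 0.80, adjusted p = 0.00774). *Gata3*, a factor that SGNs need for wiring, fell from 81.8, 48.4 and 165 TPM to 24.2, 34.8 and 11.5 TPM (log2 change -2.09, SE 0.26, adjusted p = 2.5e-05). *Onecut2* (log2 change -1.89) and *Ebf3* (-1.87) fell likewise without overlap. *Prox1*, a homeodomain factor, rose from 17.9, 5.22 and 23.2 TPM to 59.9, 128 and 48.8 TPM (log2 change 2.43, SE 0.28, adjusted p = 1.17e-05). The orphan nuclear receptors *Rorb* (log2 change 2.57, SE 0.75, adjusted p = 0.0159) and *Rora* (1.58, SE 0.36, adjusted p = 0.00321) rose as well, though *Rorb* was not called with sample quality weights (adjusted p = 0.0887). *Scrt2*, a neuronal zinc finger repressor, had 49.8, 31.9 and 61.9 TPM at E15.5 and 74.6, 70.4 and 46.5 TPM at P8 and overlapped (log2 change 0.37, SE 0.25, adjusted p = 0.277), as did *Lypd1* (log2 change 0.79, SE 0.33, adjusted p = 0.0773). *Shh*, whose locus drives the Cre used for labelling, was at 3.45, 0.959 and 0.369 TPM and then 2.76, 3.38 and 3.17 TPM (log2 change 1.51, SE 0.86, adjusted p = 0.191).

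Of 14 measured genes of embryonic growth 7 were lower (50%, against 12% of members) and 1 higher, with a median of -1.62 on the log2 scale. Besides *Igf2bp1*, *Igf2bp2* fell from 9.57, 7.71 and 13.2 TPM to 2.43, 2.28 and 1.27 TPM (log2 change -2.44, SE 0.32, adjusted p = 3.25e-05). *Arid3a* fell by 2.43 (SE 0.65, adjusted p = 0.00981) and *Mycn*, the MYC family factor of neural progenitors, by 2.13 (SE 0.37, adjusted p = 0.000464). *Mest*, an imprinted gene, was the 1 that rose, from 11, 28.2 and 15.7 TPM to 56.9, 90.5 and 39.2 TPM (log2 change 1.67, SE 0.34, adjusted p = 0.00162). In this list 2 genes were higher without E15.5 replicate 2. That library stood apart for the imprinted transcript *H19*, with 375 TPM against 7.89 and 15.1 TPM in the other E15.5 libraries and 4.65 to 43.3 TPM at P8. Among 25 neuronal RNA-binding and splicing regulators 8 were lower (32%, against 12% of members) and 3 higher (12%), with a median of -0.64. *Celf5* fell from 22.1, 16.2 and 24.7 TPM to 1.19, 2.57 and 0.785 TPM (log2 change -4.01, SE 0.50, adjusted p = 1.98e-05). *Celf3*, whose promoter is printed above, fell from 83, 38.1 and 88.1 TPM to 3.93, 9.29 and 4.09 TPM (log2 change -3.69, SE 0.24, adjusted p = 5.15e-08). *Celf1* (log2 change -1.46) and *Ptbp3* (-1.24) also fell, and *Nova1*, a neuronal splicing factor, rose (1.45, SE 0.31, adjusted p = 0.00201). *Elavl4*, the most abundant of the list, overlapped (log2 change -0.15, SE 0.16, adjusted p = 0.494). With library size alone 1 gene of this list was higher and 11 lower.

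Cell cycle and replication genes, of which 23 of 33 were members, were lower in 7 cases (30.4%, against 12% of members) and higher in 0 by limma-voom, edgeR and DESeq2, with 0 at an unadjusted p under 0.05. The 33 genes together held 207 to 261 TPM at E15.5 and 46.4 to 100 TPM at P8, and 1 gene made up much of this. *Cdkn1c*, an inhibitor that holds cells out of the cycle, stood at 69.4, 96.3 and 79.6 TPM at E15.5 and at 6.89, 10.3 and 1.99 TPM at P8 (log2 change -3.99, SE 0.49, adjusted p = 2.01e-05). *Mcm6*, a subunit of the replicative helicase, fell from 7.03, 6.04 and 14.8 TPM to 2.16, 1.3 and 0.59 TPM (log2 change -2.91, SE 0.57, adjusted p = 0.00117). The mitotic genes *Cdk1*, *Ccnb1*, *Aurka*, *Aurkb*, *Plk1*, *Bub1* and *Birc5* did not pass the member limit in all 3 libraries of either age. *Top2a* and *Ccnb2*, mitotic genes that were members, were called lower and are named outside the naming rule. Neither was called by edgeR (adjusted p = 0.0689 and 0.0817) or without P8 replicate 1. The count called lower was 3, 4 and 4 without P8 replicates 1, 2 and 3, and 4 with edgeR.

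Most genes of energy supply were called higher. Of 19 glycolysis and lactate genes 13 were higher (68.4%, against 15.1% of members) and 0 lower by limma-voom, edgeR and DESeq2 (1 lower at an unadjusted p under 0.05), with a median of 1.38. With library size alone 11 were higher and 1 lower. *Eno2*, the neuronal enolase, stood at 25, 16.4 and 28.9 TPM at E15.5 and at 238, 643 and 240 TPM at P8 (log2 change 3.79, SE 0.23, adjusted p = 2.04e-08). *Aldoa* rose from 35.6, 40.4 and 36.5 TPM to 224, 470 and 183 TPM (log2 change 2.76, SE 0.22, adjusted p = 2.71e-07). *Aldoc* (3.39) and the phosphofructokinase gene *Pfkm* (2.79) rose without overlap. *Gapdh*, often used as a reference gene, had 305, 203 and 237 TPM at E15.5 and 743, 1010 and 701 TPM at P8 (log2 change 1.65, SE 0.26, adjusted p = 0.000191). With no filter on low counts it was not called (adjusted p = 0.0535). Of 18 measured mitochondrial energy regulators 12 were higher (66.7%) and 0 lower by limma-voom, edgeR and DESeq2 (0 at an unadjusted p under 0.05), with a median of 1.49. *Ppargc1a*, which encodes the coactivator PGC-1α of mitochondrial biogenesis, rose from 5.08, 4.57 and 11 TPM to 72.6, 146 and 61.2 TPM (log2 change 3.66, SE 0.27, adjusted p = 1.61e-07). *Got1* and *Mdh1* of the malate-aspartate shuttle rose by 3.24 and 2.55. The creatine kinase gene *Ckmt1* (log2 change 2.77) and the ATP synthase subunit *Atp5b* (1.61) also rose. In this list 1 gene was lower without E15.5 replicate 1, and with library size alone 9 were higher and 1 lower.

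All 13 protein-coding genes of the mitochondrial genome were called higher (100%, against 15.1% of members), with a median of 2.03. All 3 P8 libraries lay above all 3 E15.5 libraries for each, against 16.8% of members. The 13 lie on the same genome and are not independent of one another. *mt-Nd1* stood at 881, 577 and 1303 TPM at E15.5 and at 3805, 5641 and 2689 TPM at P8 (log2 change 2.08, SE 0.16, adjusted p = 1.82e-07). *mt-Co1*, the most abundant, stood at 4222, 2939 and 3848 TPM and then at 9151, 20286 and 8614 TPM (log2 change 1.62, SE 0.19, adjusted p = 1.13e-05). Between 10 and 13 were called in the fits that left out a library, 10 with library size alone and 8 with sample quality weights. With no filter *mt-Co1* was not called (adjusted p = 0.697). The mitochondrial genome has near-copies in the nuclear genome and *mt-Nd5* and *mt-Nd6* overlap on opposite strands, so single values are uncertain. These transcripts also take up the larger share of the P8 counts given above, and leaving them out before scaling left 13 glycolysis genes and 11 mitochondrial regulators called higher.

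Within families, 38 pairs of related genes were set side by side as log2 ratios of TPM + 1 in each library. In 7 pairs the genes had opposite calls, in 9 both rose and in 1 both fell. Of single members, 15.1% were called higher and 12% lower. In 27 pairs the ratios of the 3 P8 libraries did not overlap those of the 3 E15.5 libraries. Single members lay without overlap in 16.8% of cases with P8 above and 10.2% with E15.5 above. No share over other gene pairs was computed, so these counts only describe the pairs picked. An exact two-sided permutation test of 3 libraries against 3 cannot go below p = 0.1, which is the value for each pair given here, so the ratios are described by their spread. *Scn1a* over *Scn3a* was -3.78, -1.89 and -3.63 at E15.5 and 3.26, 3.75 and 3.20 at P8, an exchange of the leading subunit. *Scn4b* over *Scn3b* was -4.91, -3.80 and -3.63 and then 1.13, 1.82 and 2.13. *Celf4* over *Celf3*, a pair of neuronal splicing regulators, was -1.45, -1.78 and -1.68 and then 3.51, 2.86 and 2.67. In these 3 pairs the gene that led at E15.5 was the lesser one at P8 in every library. So it was for *Tubb4a* over *Tubb2b* apart from E15.5 replicate 3 (-0.82, -0.77 and 0.02, then 2.21, 1.95 and 2.04). *Cplx1* over *Cplx2* widened from 0.63, 1.02 and 0.68 to 5.58, 6.19 and 6.06, in favour of the gene that already led. The vesicle proteins *Syp* and *Synpr* moved the other way, with *Synpr* over *Syp* at -4.52, -3.96 and -3.81 and then at -7.05, -8.09 and -7.75. Several of these falls and rises rest on single libraries. *Cplx2* was under 2-fold without E15.5 replicate 2 (log2 change -0.88). *Celf4* (log2 change 1.28, SE 0.38, adjusted p = 0.0163 with all libraries) was not called without E15.5 replicate 2 (adjusted p = 0.071) or P8 replicate 1 (adjusted p = 0.0517). Nor was it with library size alone, with no filter or with sample quality weights. *Synpr* was not called without P8 replicate 2 (adjusted p = 0.0541), by edgeR (adjusted p = 0.0951) or by DESeq2 (adjusted p = 0.0765). *Tubb4a* was under 2-fold without E15.5 replicate 1 (0.98) and with library size alone (0.76). The number of pairs with opposite calls was 4 without E15.5 replicate 2.

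In other pairs the ratio shifted without opposite calls. *Vamp1* over *Vamp2* went from -4.90, -4.11 and -3.68 to -0.79, 0.11 and 0.01, so that a gene far below its paralog at E15.5 was level with it at P8. *Vamp2* itself overlapped between the ages (83.9, 77.1 and 103 TPM, then 151, 181 and 95.6 TPM). *Eno2* over *Eno1* went from a mean of -1.34 (SD 0.41, n = 3) to 1.96 (SD 0.23). *Slc17a7* over *Slc17a6* went from -1.56, -0.85 and -3.01 to 0.12, -0.24 and 0.09, and both transporters therefore stood at like TPM at P8. *Syt2* over *Syt1* went from -1.22, -0.61 and -0.34 to 1.94, 2.38 and 2.24, with *Syt1* itself weakly called higher (log2 change 1.42, SE 0.52, adjusted p = 0.045, called in 1 of 6 fits that left out a library). *Eno1* and *Syt1* were named after their values were seen.

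**Figure D5:**
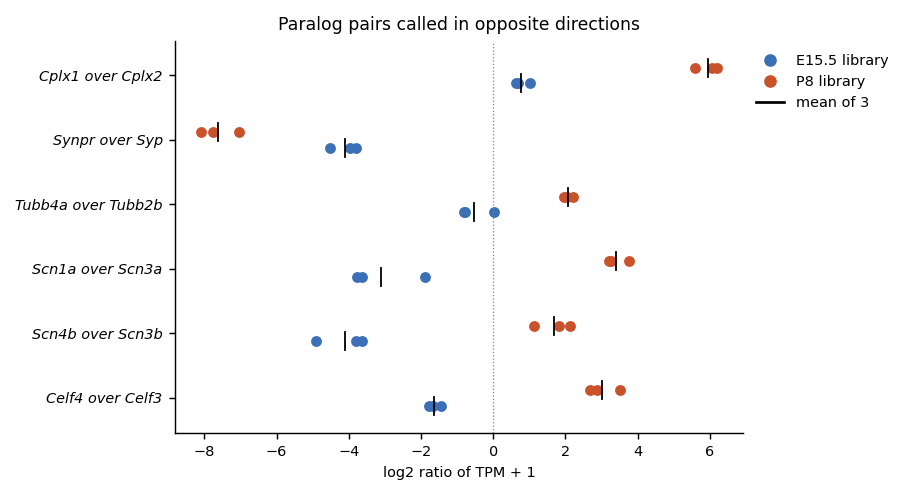
Log2 ratio of TPM + 1 for 6 pairs of related genes with opposite calls in each library, with 1 point a library, E15.5 in blue, P8 in orange and a line at the mean of 3. Values above 0 mean that the gene named first leads. For *Scn1a* over *Scn3a* the E15.5 points lie between -3.78 and -1.89 and the P8 points between 3.20 and 3.75.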

How the data were processed

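Counts per gene for 21 libraries, of which the 3 E15.5 and 3 P8 SGN libraries are compared here, were used as the authors deposited them. Per the submitters' processing notes and the study's methods, RNA of the picked cells was amplified (Ovation RNA-Seq System V2), sequenced, demultiplexed with CASAVA, aligned to mm10 with STAR 2.4.0i and counted with featureCounts on GENCODE annotation. Strand, pair and multi-mapping settings are not given in the sources used here, and between 67.2 and 69.6% of the counts from 1 to 20 in the 6 libraries were even, so mates of a pair may have been counted separately. Amplification from 69 to 140 cells means that counts are not independent molecules, and floors cover counting error only. Of 52550 genes, 52403 had a symbol.

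From the deposited counts, TPM were computed with the gene lengths in the table. The test was limma-voom (limma 3.58.1, edgeR 4.0.16 for TMM factors, R 4.3.3) with 1 mean per age over the 15 SGN libraries. It covered the 15113 genes that passed a CPM of 1 in every replicate of at least 1 age. P-values were Benjamini-Hochberg adjusted over all 15113, and a gene was called at an adjusted p under 0.05 and over 2-fold. Ratios used a pseudocount of 1 TPM, with figures and tables in Python 3.11.15. The procedure was also run on simulated data in which a small part of the genes changed, with as many rises as falls. The outcome is not given here, and such data cannot test how the scaling moves the split. Members and gene lists were chosen with earlier results of these data known. Genes were named by rule: the 10 largest rises and falls among protein-coding genes over 10 CPM in all libraries of one age, without overlap and called in each fit leaving out 1 library; up to 4 per direction and the most abundant gene of each list; genes of exchanged paralog pairs; 12 genes of the study; and cell markers. Genes outside it are said to be so, and some items under the rule are not reported here. Alternatives were edgeR's quasi-likelihood test, DESeq2 1.42.0, other scalings, filters, weights and thresholds, thinned counts, a replicate block and each library left out.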

Additional observations from a re-analysis of the deposited data

How the results depend on the processing

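Against 3882 genes called in the fit, of which 2176 were higher and 1706 lower, 278 genes called in the lists and 7 paralog pairs with opposite calls, the following changed by over 1.5 times or moved the balance. At a 4-fold threshold 1957 genes were called, 1088 higher and 869 lower, with 150 in the lists and 1 pair. With library size alone 1426 were higher and 2778 lower, and the share of calls that were higher was 33.9% against 56.1%. With sample quality weights 1404 were higher (48%). The cause of the last was not tested. The share higher was 50.3% with DESeq2, whose median change over genes was -0.11, and lay between 48.1 and 59.7% in the other settings. Leaving out 1 library gave 3102 to 4273 genes called, 1659 to 2054 higher, 1276 to 2219 lower, 250 to 265 in the lists and 4 to 7 pairs, with 4 pairs without E15.5 replicate 2. Of 297 called genes named or counted in the lists and pairs, none reversed in any setting, and between 263 and 289 kept their call in each setting that tested them all, except the 4-fold threshold with 169. With no filter the median change was -0.27 and abundant genes such as *Snap25* and *mt-Co1* were not called, and the cause was not tested. The depth of the E15.5 libraries (12887010 to 18737521 counts) limits what is known of genes near 0 there.

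Deviations from the age means of E15.5 and P8 libraries with the same replicate number correlated at -0.057, -0.0963 and 0.0168 over 15113 genes. Those of libraries with different numbers correlated between -0.0644 and 0.128. With 3 libraries an age these values cannot show whether libraries of the same number shared a preparation. With the replicate number as a replicate block 3832 genes were called, 1966 higher and 1866 lower, with 269 in the lists and 7 pairs.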
